A study of Mus musculus with 16 samples.

Results

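Keratins, vimentin and small proline-rich (Sprr) proteins are structural proteins whose genes respond when an epithelium is remodelled, and their signal was followed here in kidneys of mice that lack aquaporin-11. The group holds 8 genes, the simple-epithelial keratins Krt7, Krt8, Krt18, Krt19 and Krt20, the mesenchymal filament gene Vim, and Sprr1a and Sprr2f. They are 8 of the 18193 genes that the array annotation names, and every probe set naming one of them is given, 12 in all. Of the members, 6 have 1 probe set each, whereas Krt8 and Vim have 3 each. The members were selected on the Aqp11-/- against Aqp11+/+ comparison itself, from a larger account of the same arrays, so their differences between the genotypes are a description and carry no test.

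Kidney RNA was measured on 16 whole-genome expression arrays, 1 animal per array, with 9 Aqp11-/- pups (5 males, 4 females) and 7 Aqp11+/+ pups (3 males, 4 females). All were 7 days old and carry the strain label C57BL/6J. The null allele was made in 129/SvEvBrd mice and crossed repeatedly to a C57/BL6 background, heterozygous parents were then mated, and the control pups are littermates, so both genotypes share that background apart from sequence that may still flank the null allele. Aqp11-/- pups lack the gene in every tissue that uses it, and whole kidney was taken, so the signal of a gene is summed over all cell types. Aqp11 encodes an aquaporin of intracellular membranes, and the comparison asks which kidney genes change without it.

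Keratins form the intermediate filaments of epithelia as obligate pairs of an acidic and a basic chain. Krt8 pairs with Krt18 in simple epithelia, and Krt7, Krt8, Krt18 and Krt19 are found in kidney mainly in the collecting duct and the lining of the renal pelvis. Krt20 is best known from intestinal epithelium and the surface cells of the urothelium. Vim is the filament of fibroblasts, endothelium, podocytes and macrophages, and is also switched on in tubule cells that regenerate. Sprr proteins are cross-linked by transglutaminases into the cornified envelope of squamous epithelia, and in mouse kidney Sprr2f is known as a gene induced by urinary obstruction.

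The promoters of the genes with the largest differences are shown because they are the stretches to which a shared regulator would bind. Each runs from 250 bases before to 50 bases after the transcription start, from RefSeq on GRCm38.p6, and 7 of the 8 members have such a window in the table. Capitals mark matches on either strand to the AP-1 motif TGANTCA, the TEAD motif GGAATG and the TATA box TATAAA.
Krt20, chr11:99438104-99438403, minus strand: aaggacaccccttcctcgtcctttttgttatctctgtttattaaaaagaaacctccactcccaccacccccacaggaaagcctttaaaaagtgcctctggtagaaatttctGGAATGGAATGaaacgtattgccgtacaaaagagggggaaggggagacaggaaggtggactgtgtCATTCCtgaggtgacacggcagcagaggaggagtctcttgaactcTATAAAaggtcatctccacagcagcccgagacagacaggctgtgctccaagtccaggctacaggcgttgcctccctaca
Sprr1a, chr3:92485832-92486131, minus strand: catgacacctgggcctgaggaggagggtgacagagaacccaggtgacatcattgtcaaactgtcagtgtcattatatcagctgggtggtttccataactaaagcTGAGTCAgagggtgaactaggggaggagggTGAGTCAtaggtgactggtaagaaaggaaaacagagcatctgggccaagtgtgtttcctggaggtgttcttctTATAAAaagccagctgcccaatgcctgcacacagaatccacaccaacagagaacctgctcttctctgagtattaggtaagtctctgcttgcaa
Sprr2f, chr3:92364937-92365236, plus strand: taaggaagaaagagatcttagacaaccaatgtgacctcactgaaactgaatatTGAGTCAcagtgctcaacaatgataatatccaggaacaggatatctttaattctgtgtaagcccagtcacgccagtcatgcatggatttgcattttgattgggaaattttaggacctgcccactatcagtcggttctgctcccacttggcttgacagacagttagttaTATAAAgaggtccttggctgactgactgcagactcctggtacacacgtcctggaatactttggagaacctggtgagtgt

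The Sprr1a window held AP-1 matches that begin at -146 and -116 from the start, and the Sprr2f window held 1 at -197. The Krt20 window held no AP-1 match, and instead 3 TEAD matches, of which those at -139 and -134 share 1 base and the last lies at -74 on the other strand. Among 32851 such windows of 27025 genes, the AP-1 letters occurred in 7.81%, the TEAD letters in 14.7% and the TATA letters in 13.6%. A TATA match stood before the start of Krt20 and Sprr2f (at -29 in both), Vim (at -32) and Sprr1a (at -43), and overlapping matches that begin at -3 and -1 lie across the start of Krt8. The windows of Krt18 and Krt7 held none of the 3 motifs. Of the 7 windows, 2 had AP-1, 1 had TEAD and 5 had TATA letters. A match is a description of the letters, not evidence of binding, and no binding was measured here.

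Aqp11 was nearly lost in the arrays labelled Aqp11-/-. Its brightest probe set had a log2 normalized signal of 2.95 ± 0.33 (SD, n = 9) in Aqp11-/- kidneys, with 7 arrays at the floor set on low signals, against 7.87 ± 0.16 (SD, n = 7) in Aqp11+/+ kidneys (limma adjusted p = 3.87e-14), at least 30.3-fold lower. Array brightness, as the trimmed mean of the deposited signal, varied 2.13-fold, and 4 Aqp11-/- and 4 Aqp11+/+ arrays were brighter than the other 5 Aqp11-/- and 3 Aqp11+/+ arrays. Of 12499 genes bright enough to test, 2215 changed between the genotypes (17.7%, limma, Benjamini-Hochberg adjusted p under 0.05), 1171 of them higher (9.37%) and 1044 lower (8.35%) in Aqp11-/- kidneys. On the deposited scale without normalization between arrays, 284 genes were higher and 154 lower, so that the higher share of calls was 64.8% there and 52.9% after normalization.

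All 8 members passed the filter on dim signals, which asks for a log2 signal above 4.56 on at least 7 of the 16 arrays. Krt20 and Sprr2f passed it through the Aqp11-/- arrays, where all 9 lay above that level, against 2 of 7 Aqp11+/+ arrays for each gene. In all, 7 members had a higher mean in Aqp11-/- kidneys, with every Aqp11-/- array above every Aqp11+/+ array, and Krt7 had a lower one. Over all genes tested, 364 (2.91%) had every Aqp11-/- array above every Aqp11+/+ array, but the members were chosen on this contrast, so nothing is read from that count. Among the 12499 genes ordered by their difference, highest first, Krt20 stood 6th, Sprr2f 7th, Sprr1a 14th, Krt19 256th, Krt18 498th, Krt8 565th, Vim 992nd and Krt7 10206th.

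**Figure D1:**
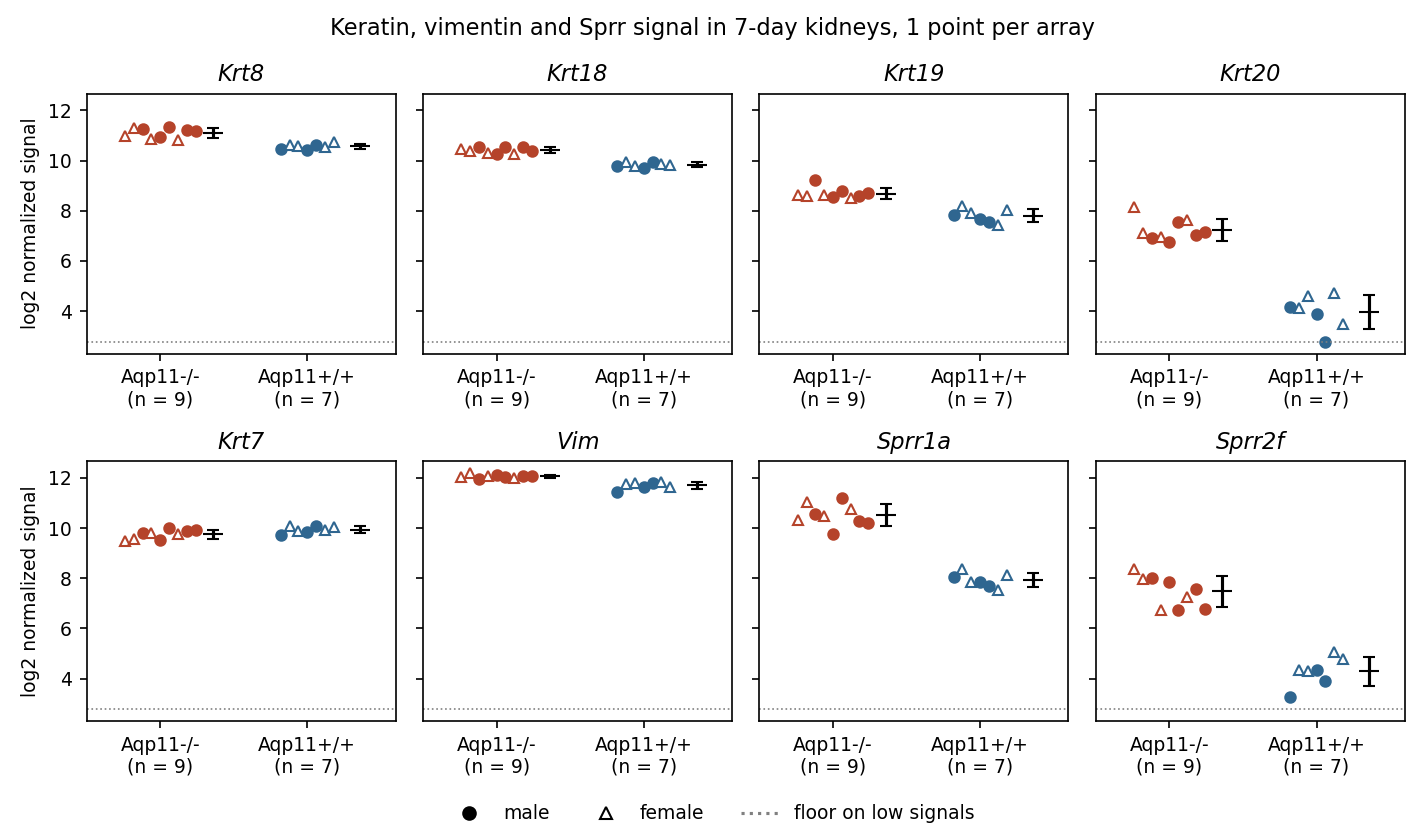
Log2 normalized signal (y axis) of the brightest probe set of each member in 9 Aqp11-/- kidneys (red, left) and 7 Aqp11+/+ kidneys (blue, right). Each point is 1 array, filled circles are males and open triangles females, bars are mean and SD, and the dotted line is the floor of 2.78. In 7 of the 8 panels the groups do not overlap, with the widest gaps for Krt20, Sprr2f and Sprr1a, whereas the Krt7 groups overlap.

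Krt20 showed the widest gap between the genotypes among the keratins. Its log2 signal ran from 6.74 to 8.14 with a median of 7.13 in Aqp11-/- kidneys, against 2.78 to 4.74 with a median of 4.11 in Aqp11+/+ kidneys. The lowest Aqp11-/- array lay 2.00 above the highest Aqp11+/+ array, so the groups were far apart. The means were 7.25 ± 0.44 (SD, n = 9) in Aqp11-/- kidneys and 3.97 ± 0.67 (SD, n = 7) in Aqp11+/+ kidneys, a difference of 3.28 or 9.69-fold. The Aqp11+/+ array 4-1 was at the floor, which makes that fold a lower bound. Back on the linear scale, the geometric mean signal was 152 in Aqp11-/- kidneys and 15.7 in Aqp11+/+ kidneys. Fewer or more cells of a type and less or more RNA per cell cannot be told apart in whole kidney, here and in every difference below.

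Krt19, an acidic keratin of ducts and urothelium, had the next largest keratin difference. It ran from 8.49 to 9.23 with a median of 8.61 in Aqp11-/- kidneys, against 7.44 to 8.18 with a median of 7.82 in Aqp11+/+ kidneys. The groups did not overlap, and the gap between their nearest arrays was 0.30. The means were 8.68 ± 0.22 (SD, n = 9) in Aqp11-/- kidneys and 7.80 ± 0.26 (SD, n = 7) in Aqp11+/+ kidneys, a difference of 0.88 or 1.84-fold. Array 2-4, a male, stood alone at the top of the Aqp11-/- kidneys at 9.23, with the next at 8.77.

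The Krt8 and Krt18 chains, which assemble with each other, differed by similar amounts. Krt18 ran from 10.25 to 10.55 with a median of 10.40 in Aqp11-/- kidneys, against 9.71 to 9.96 with a median of 9.83 in Aqp11+/+ kidneys. Its means were 10.41 ± 0.12 (SD, n = 9) and 9.84 ± 0.09 (SD, n = 7) in Aqp11-/- and Aqp11+/+ kidneys, a difference of 0.57 or 1.48-fold. The Krt18 groups were separated by 0.29, with a narrow spread inside each.

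The brightest Krt8 probe set ran from 10.82 to 11.33 with a median of 11.17 in Aqp11-/- kidneys, against 10.44 to 10.74 with a median of 10.58 in Aqp11+/+ kidneys. The means were 11.09 ± 0.20 (SD, n = 9) and 10.57 ± 0.10 (SD, n = 7) in Aqp11-/- and Aqp11+/+ kidneys, a difference of 0.52 or 1.43-fold. The nearest arrays were 0.09 apart, a female Aqp11-/- pup (4-3) and a female Aqp11+/+ pup (5-1), so the separation of Krt8 rests on a small gap. Its other probe sets, which the maker marks as able to bind related sequences too, gave differences of 0.54 and 0.53, again with no overlap, so the 3 measurements of Krt8 lay close together.

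Krt7, a basic keratin of ducts and urothelium that can pair with Krt18 or Krt19, did not share the direction of the other keratins. It ran from 9.47 to 10.00 with a median of 9.79 in Aqp11-/- kidneys, against 9.71 to 10.07 with a median of 9.94 in Aqp11+/+ kidneys. The means were 9.75 ± 0.18 (SD, n = 9) and 9.94 ± 0.13 (SD, n = 7) in Aqp11-/- and Aqp11+/+ kidneys, a difference of -0.18. The groups overlapped widely, and only 3 Aqp11-/- arrays lay below the lowest Aqp11+/+ array.

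Vim, the type III filament of mesenchymal cells, had the smallest positive difference of the members and was bright in both genotypes. Its brightest probe set ran from 11.95 to 12.20 with a median of 12.06 in Aqp11-/- kidneys, against 11.45 to 11.83 with a median of 11.75 in Aqp11+/+ kidneys. The means were 12.06 ± 0.07 (SD, n = 9) and 11.70 ± 0.14 (SD, n = 7) in Aqp11-/- and Aqp11+/+ kidneys, a difference of 0.36 or 1.28-fold. The groups were parted by 0.13 on this probe set. The other Vim probe sets gave larger differences, 0.44 and 0.41, but wider spreads, and their groups overlapped, with 7 and 4 of the 9 Aqp11-/- arrays above the highest Aqp11+/+ array. The separation of Vim therefore depends on the probe set, and 9 of the 12 member probe sets showed none of the Aqp11+/+ arrays reaching the Aqp11-/- arrays.

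Sprr1a, a cornified envelope precursor, was already well above the floor in control kidneys. It ran from 9.75 to 11.20 with a median of 10.50 in Aqp11-/- kidneys, against 7.55 to 8.38 with a median of 7.87 in Aqp11+/+ kidneys. The groups were 1.37 apart at their nearest arrays. The means were 10.52 ± 0.45 (SD, n = 9) and 7.94 ± 0.28 (SD, n = 7) in Aqp11-/- and Aqp11+/+ kidneys, a difference of 2.58 or 5.97-fold. On the linear scale this is a geometric mean signal of 1464 in Aqp11-/- kidneys and 245 in Aqp11+/+ kidneys.

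Sprr2f, a member of the Sprr2 branch of the same family, was dim in control kidneys. It ran from 6.73 to 8.36 with a median of 7.58 in Aqp11-/- kidneys, against 3.27 to 5.05 with a median of 4.36 in Aqp11+/+ kidneys. The groups were 1.68 apart at their nearest arrays, and no array was at the floor. The means were 7.48 ± 0.62 (SD, n = 9) and 4.29 ± 0.58 (SD, n = 7) in Aqp11-/- and Aqp11+/+ kidneys, a difference of 3.18 or 9.09-fold. Among the Aqp11-/- kidneys Sprr2f had the widest range of the members, 1.63, and 3 arrays (3-4, 3-2 and 5-2) lay at 6.73 to 6.76, below the other 6.

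The 5 breeding pairs of the study and the first part of the sample numbers, which runs from 1 to 5, may correspond, but the labels do not say so. Grouped by that number, the difference was positive in 5 of 5 groups for each member other than Krt7. Krt20 differed by 2.66 to 3.99 across these groups, Sprr1a by 2.04 to 2.90 and Sprr2f by 1.99 to 5.09. For Krt7 the difference was negative in 5 of 5, from -0.29 to -0.06. Krt19 differed by 0.68 to 1.04, Krt18 by 0.48 to 0.67, Krt8 by 0.43 to 0.68 and Vim by 0.22 to 0.59.

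Array brightness was even between the genotypes, and the members' differences were taken within the brighter and the dimmer arrays as well. Krt20 differed by 3.05 among the brighter and by 3.58 among the dimmer arrays, Sprr2f by 3.65 and 2.70, and Sprr1a by 2.37 and 2.80. Krt19 differed by 0.69 and 1.09, Krt18 by 0.55 and 0.57, and Krt8 by 0.48 and 0.52, the brighter arrays given first each time. Vim differed by 0.45 among the brighter and 0.27 among the dimmer arrays, and Krt7 by -0.28 and -0.14. The other Vim probe sets differed by 0.68 and 0.64 among the brighter and by only 0.19 and 0.16 among the dimmer arrays. The size of the Vim difference thus depended on the brightness class. The signs thus held within both brightness classes, and they held on the deposited scale too, where Krt20 differed by 3.28, Sprr2f by 3.22 and Krt7 by -0.16.

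Sex was not used to choose the members, so their sex difference could be tested, with genotype as a second term. None of the 8 members differed between males and females (limma adjusted p = 0.999 for each), against 6 of 12499 genes that did (0.048%). Those 6 were Eif2s3y, Kdm5d and Uty, which lie on the Y chromosome, and Xist, Eif2s3x and Kdm6a, which are known to differ in dose between the sexes. Krt20 alone among the members had an unadjusted p under 0.05, with a male minus female difference of -0.49 (limma unadjusted p = 0.0434), as had 389 of all genes. Krt20 averaged 7.08 ± 0.30 (SD, n = 5) in male and 7.46 ± 0.54 (SD, n = 4) in female Aqp11-/- kidneys, and 3.60 ± 0.72 (SD, n = 3) in male and 4.24 ± 0.56 (SD, n = 4) in female Aqp11+/+ kidneys.

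The dependence of the genotype difference on sex was tested as an interaction, and no gene passed (0%, limma). Of the 12499 genes, 1353 had an unadjusted p under 0.05, a larger share than the 0.05 awaited where no gene depends on sex. The cause of this excess was not tested. The member nearest to passing was Krt8, whose difference was 0.67 in males and 0.36 in females (interaction 0.31, SE 0.14, limma unadjusted p = 0.0447, adjusted p = 0.455). Krt19 differed by 1.08 in males and 0.69 in females, and its interaction did not pass (limma adjusted p = 0.481). Sprr2f differed by 3.54 in males and 2.96 in females, within the spread of a gene whose SD was 0.62 (interaction limma adjusted p = 0.634). These data do not show that the members respond alike in the sexes, only that a difference was not detected with these numbers of pups. The brighter Aqp11-/- arrays were mostly of females and the dimmer ones mostly of males. In the dimmer arrays Krt19 differed by 1.09 and in the brighter ones by 0.69. Sex and array brightness can therefore not be told apart in these values.

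The remaining keratins were read beside the members, which had been set apart on this same contrast. The annotation names 43 other keratin genes, of which 6 were bright enough to test. By limma 0 of 6 changed, against 17.7% of all genes tested, with 0 at an unadjusted p under 0.05. So few genes cannot show whether their share differs from that of all genes. The median difference of the 6 was -0.03, against 0.00 over all genes tested. Krt10, a suprabasal epidermal keratin, averaged 7.84 ± 0.36 (SD, n = 9) in Aqp11-/- kidneys and 7.90 ± 0.18 (SD, n = 7) in Aqp11+/+ kidneys, a difference of -0.07 (limma adjusted p = 0.80). Krt80 and the hair keratin Krt81 differed by -0.18 and -0.25 (limma adjusted p = 0.561 and 0.553), and Krt42 by 0.04 (limma adjusted p = 0.908).

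The other 37 keratins were too dim to test, with means of at most 4.49 in Aqp11-/- and 4.47 in Aqp11+/+ kidneys. With the filter on dim signals removed, all 43 could be tested and 0 changed by limma, with a smallest adjusted p of 0.266. Their differences ran from -0.38 to 0.53, and none had every Aqp11-/- array above every Aqp11+/+ array. The basal keratins Krt5 and Krt14 and the stratified keratins Krt6a and Krt16 were among the genes too dim to test. The floor understates differences of such dim genes, so a small change in them was not detectable.

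**Figure D2:**
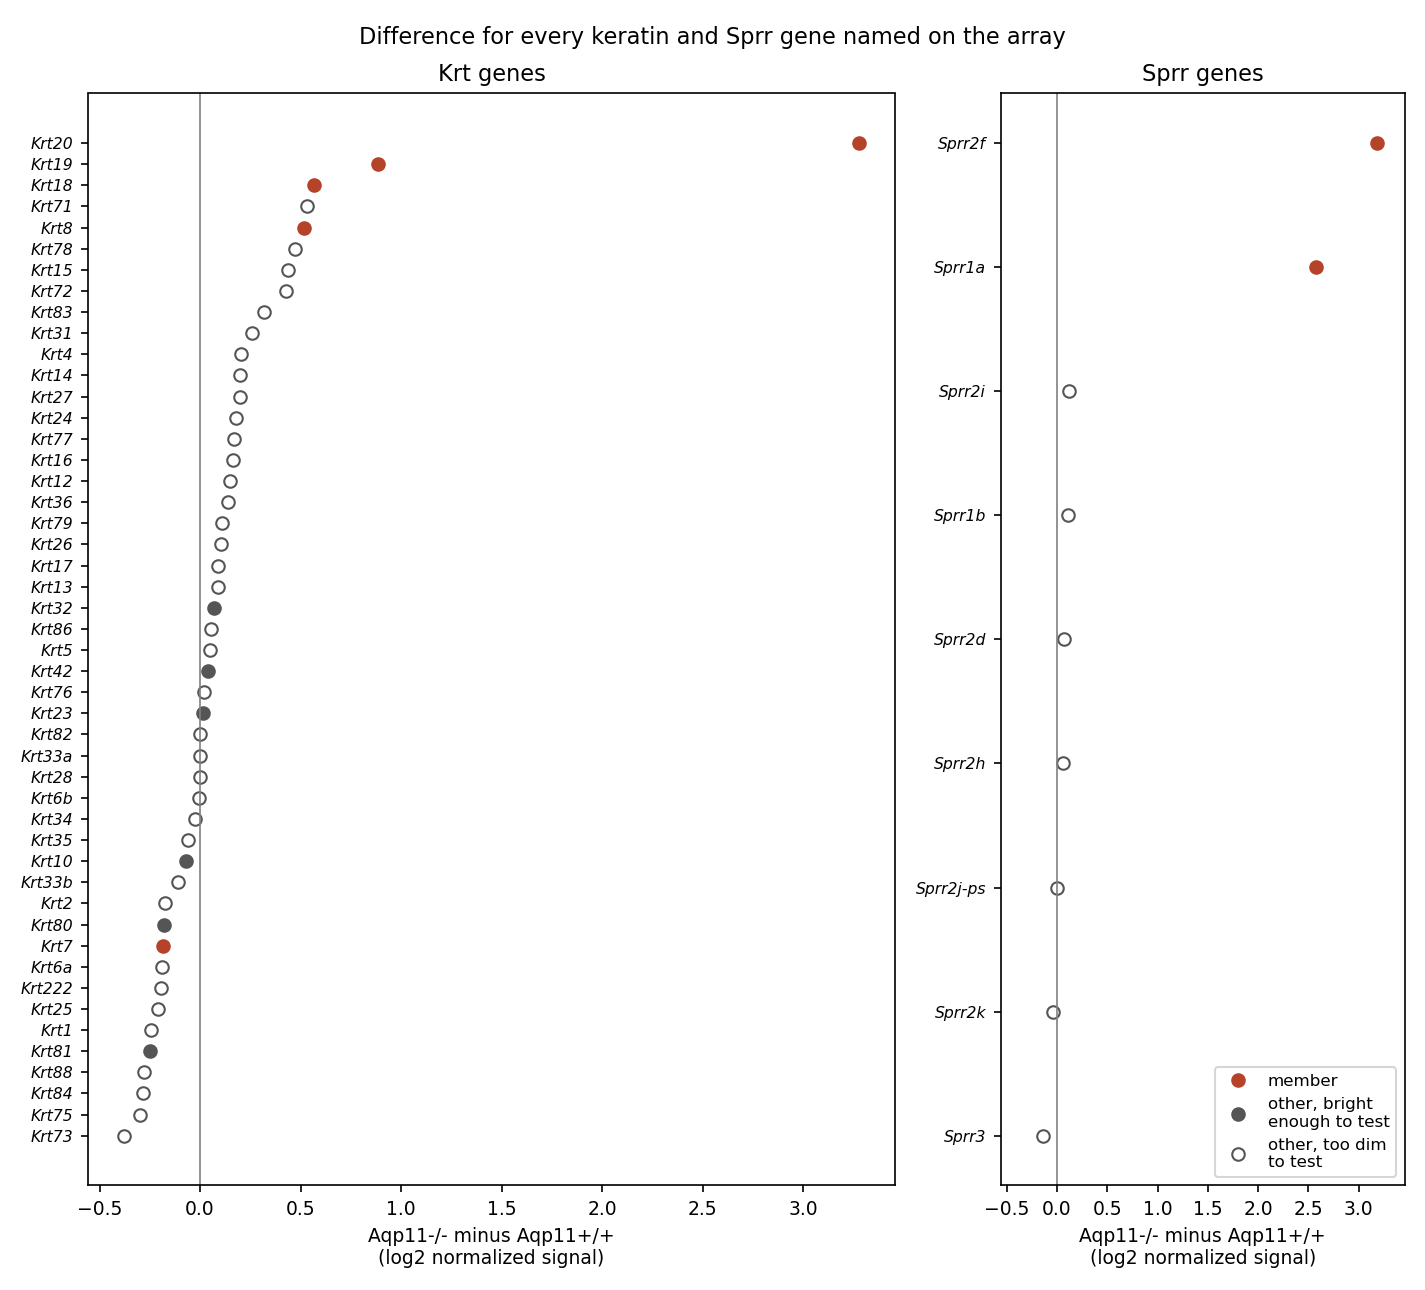
Difference in log2 normalized signal, Aqp11-/- minus Aqp11+/+ (x axis), for every gene named Krt or Sprr with a number on the array. Red points are members, filled grey points are other genes bright enough to test, open points are genes too dim to test. Krt20 (3.28), Sprr2f (3.18) and Sprr1a (2.58) have the largest differences, Krt19 (0.88) and Krt18 (0.57) come next, and the genes that are not members lie between -0.38 and 0.53.

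A further 7 Sprr genes are named on the array (Sprr1b, Sprr2d, Sprr2h, Sprr2i, Sprr2j-ps, Sprr2k and Sprr3), and 0 of 7 were bright enough to test. Their differences ran from -0.14 for Sprr3 to 0.12 for Sprr2i. Without the filter 0 of 7 changed by limma, with 0 at an unadjusted p under 0.05 and a smallest adjusted p of 0.467. Sprr1b, the closest named relative of Sprr1a, was at the floor on 8 of 9 Aqp11-/- arrays and 7 of 7 Aqp11+/+ arrays.

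The Sprr2 genes are near-identical copies in a cluster, and a probe set of one may bind the transcript of another, so the Sprr2f signal may include other Sprr2 transcripts. A further 3 probe sets name several Sprr2a genes at the same time. The first was at the floor on all 16 arrays, the next averaged 5.39 ± 0.73 (SD, n = 9) in Aqp11-/- and 5.71 ± 0.56 (SD, n = 7) in Aqp11+/+ kidneys, and the last averaged 3.96 ± 0.97 (SD, n = 9) in Aqp11-/- and 3.49 ± 1.12 (SD, n = 7) in Aqp11+/+ kidneys. The differences of these shared probe sets, -0.31 and 0.47, were smaller than the SD within the groups.

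Other genes of the cornified envelope, the structure that Sprr proteins build, were read as a list. Of 28 named on the array 8 were bright enough to test, with 3 at an unadjusted p under 0.05 and a median difference of -0.16. By limma 0 rose and 1 fell (12.5%), against 9.37% higher and 8.35% lower over all genes tested. The gene that fell was Scel, a precursor of the envelope, at 7.04 ± 0.25 (SD, n = 9) in Aqp11-/- and 7.60 ± 0.19 (SD, n = 7) in Aqp11+/+ kidneys (difference -0.57, limma adjusted p = 0.000963). Scel lost its call among the dimmer arrays alone and on the deposited scale, where its adjusted p reached 0.217. Tgm1, the transglutaminase that cross-links envelope proteins, differed by -0.28 (limma adjusted p = 0.0839), and passed with array weights and without array 3-4 or 5-2 of the Aqp11-/- kidneys, at a lowest adjusted p of 0.0413. Envoplakin (Evpl), repetin (Rptn) and trichohyalin (Tchh) differed by -0.27, -0.65 and 0.10, and none passed (limma adjusted p = 0.252, 0.127 and 0.827), although Rptn passed once arrays were blocked by first sample number (difference -0.76, adjusted p = 0.0381).

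Among other intermediate filament genes, 1 of 6 tested rose (16.7%) and 0 fell, with a median of 0.24. The shares over all genes tested were 9.37% higher and 8.35% lower. The lamin A/C gene Lmna, which builds the nuclear lamina, was 9.01 ± 0.17 (SD, n = 9) in Aqp11-/- and 8.25 ± 0.09 (SD, n = 7) in Aqp11+/+ kidneys (difference 0.76, limma adjusted p = 3.72e-07). Desmin (Des) and nestin (Nes), which co-assemble with Vim in some cells, differed by 0.41 and 0.26 (limma adjusted p = 0.192 for both). Without Aqp11-/- array 1-2 the count was 2 in place of 1.

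Genes of proteins that tie keratin and vimentin filaments to each other and to desmosomes were read as a further list. Of 14 tested 2 rose (14.3%) and 1 fell (7.14%), against 9.37% and 8.35% over all genes tested, with a median of 0.12. Epiplakin (Eppk1), a linker that binds keratins and vimentin, averaged 6.02 ± 0.22 (SD, n = 9) in Aqp11-/- and 4.99 ± 0.24 (SD, n = 7) in Aqp11+/+ kidneys (difference 1.03, limma adjusted p = 1.29e-05). Plectin (Plec), the general cross-linker of intermediate filaments, was 9.54 ± 0.17 (SD, n = 9) in Aqp11-/- and 9.01 ± 0.16 (SD, n = 7) in Aqp11+/+ kidneys (difference 0.53, limma adjusted p = 8.43e-05), a call that was lost on the deposited scale (adjusted p = 0.115). Dystonin (Dst), a linker of the same plakin family, fell by 0.21 on the log2 scale (limma adjusted p = 0.023), a call lost in 9 of 31 alternatives. These were the analyses without Aqp11+/+ array 4-2 (-0.20) or 5-1 (-0.18), with median centring, on the deposited scale, with the mean of probe sets, in each sex alone and within each brightness class.

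Genes of epithelial identity, such as junction proteins and epithelial transcription factors, had a median difference of 0.01. By limma 4 of 28 were higher (14.3%) and 1 lower (3.57%), against 9.37% and 8.35% over all genes tested. The 4 that rose are transcription factors. Klf6 differed by 1.12 (limma adjusted p = 2.55e-05), Sox9, a factor of developing and regenerating tubules, by 1.23 (adjusted p = 0.00349), Klf5 by 0.82 (adjusted p = 0.00024) and Elf3 by 0.54 (adjusted p = 3.66e-05). The kidney cadherin Cdh16 fell by 0.15 on the log2 scale, at 12.25 ± 0.07 (SD, n = 9) in Aqp11-/- and 12.40 ± 0.03 (SD, n = 7) in Aqp11+/+ kidneys (limma adjusted p = 0.0089). The epithelial cadherin Cdh1 and the adhesion molecule Epcam differed by 0.10 and 0.02 and did not pass (limma adjusted p = 0.79 and 0.861). Sox9 was dim, at 5.40 ± 0.29 (SD, n = 9) in Aqp11-/- and 4.16 ± 0.84 (SD, n = 7) in Aqp11+/+ kidneys. Its Aqp11+/+ mean lay below the filter level of 4.56, and 1 Aqp11+/+ array was at the floor. Sox9 lost its call in females alone and within each brightness class, Klf5 with the mean of probe sets, and Elf3 on the deposited scale. Cdh16 lost its call with median centring, on the deposited scale, in each sex alone and within each brightness class.

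Genes linked to mesenchymal transition, the list closest to Vim, held 6 of 20 higher (30%) and 1 lower (5%) with a median of 0.16. Over all genes tested these shares were 9.37% and 8.35%. Cd44, an adhesion receptor of injured tubules and leukocytes, averaged 8.83 ± 0.23 (SD, n = 9) in Aqp11-/- and 6.89 ± 0.59 (SD, n = 7) in Aqp11+/+ kidneys (difference 1.94, limma adjusted p = 1.94e-07). Fibronectin (Fn1) differed by 0.46 (adjusted p = 3.38e-06), the smooth muscle gene Tagln by 0.72 (adjusted p = 1.39e-05) and the repressor Snai2 by 0.50 (adjusted p = 0.00217). Of the other transcription factors of this list, Snai1, Zeb2 and Twist1 did not pass. Zeb1 was the gene that fell, by 0.17 on the log2 scale (limma adjusted p = 0.0407), and its call was lost in 18 of 31 alternatives. Of these 18, 10 leave out 1 array (Aqp11-/- 1-2, 2-4, 3-3, 3-4 or 5-2, Aqp11+/+ 1-1, 2-1, 2-2, 3-1 or 4-2), with adjusted p from 0.0501 to 0.0878, and others are median centring and the deposited scale. The count of 7 depended on the normalization, at 4 with median centring and 2 on the deposited scale, where Fn1 and Snai2 lost their calls. Snai2 lost it also in females alone and in the brighter arrays alone.

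**Figure D3:**
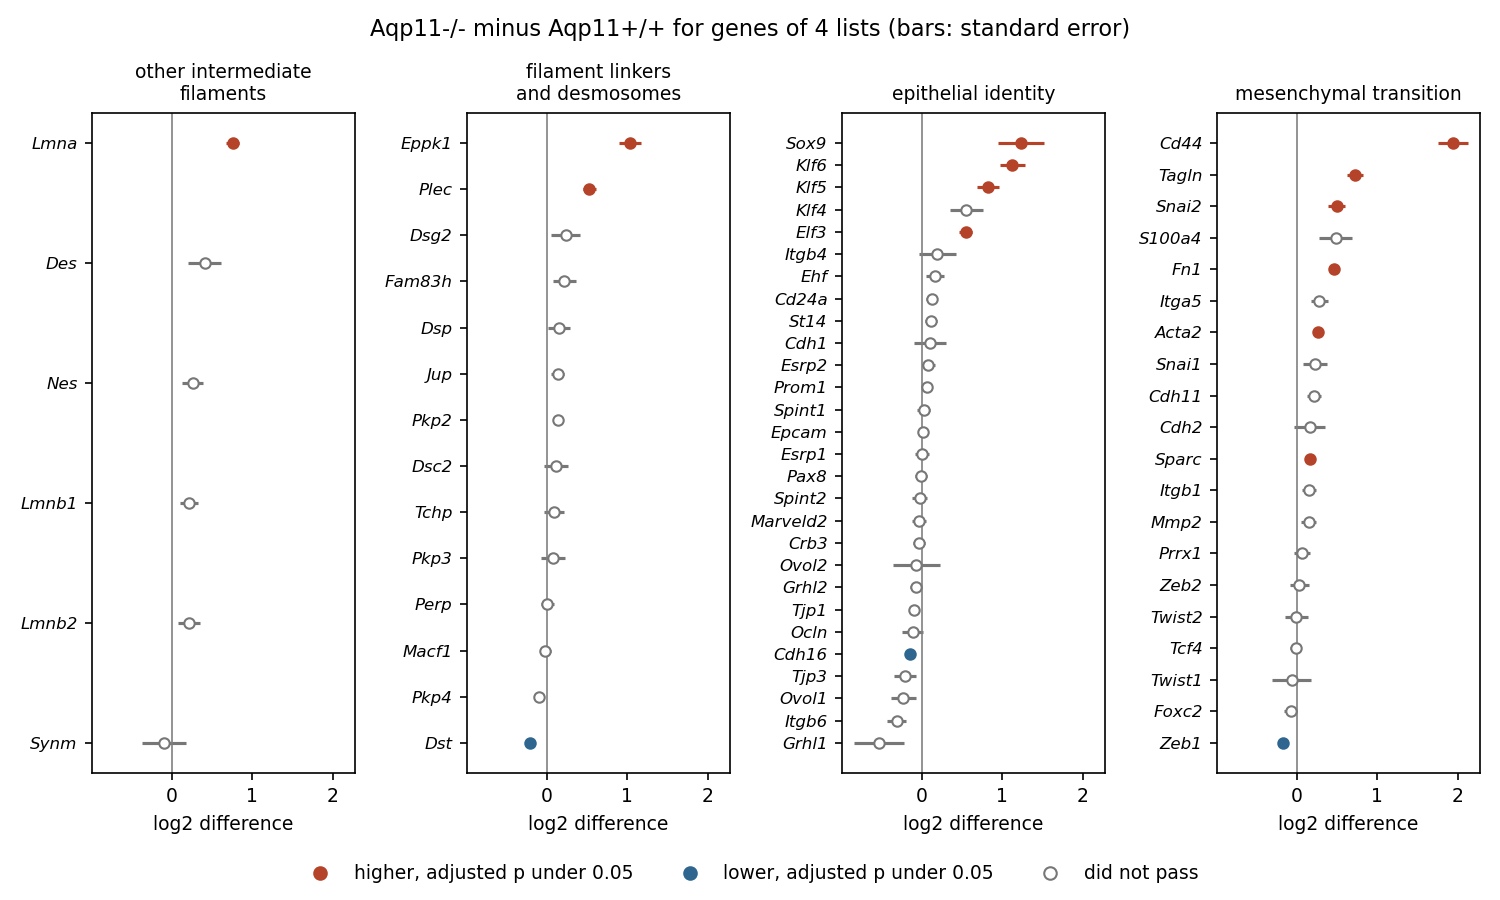
Difference in log2 normalized signal, Aqp11-/- minus Aqp11+/+ (x axis), for the tested genes of 4 lists, with bars of 1 standard error. Red points are higher and blue points lower at a limma adjusted p under 0.05, open points did not pass. Lmna, Eppk1, Plec, Sox9, Klf6 and Cd44 lead their lists, and most junction and adhesion genes lie near 0.

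Macrophage, stromal and proximal tubule markers also differed between the genotypes. Their counts stand beside 9.37% higher and 8.35% lower over all genes tested. Of 13 macrophage markers 12 rose and 0 fell (median 1.38), and their summed signal ran from 4901 to 8176 in Aqp11-/- and from 2023 to 3902 in Aqp11+/+ kidneys. Of 12 stromal markers 5 rose and 0 fell (median 0.14), with sums of 25421 to 28262 in Aqp11-/- and 22461 to 24587 in Aqp11+/+ kidneys, and 3 changed without Aqp11+/+ array 1-1 or 3-1. The stromal count of 5 was also 3 with median centring or without a variance trend, 2 in the dimmer arrays, 1 in the brighter arrays or on the deposited scale, and 0 in females alone. Macrophages and stromal cells contain Vim, and the part of these cells in the Vim difference was not tested. Of 11 proximal tubule markers 0 rose and 10 fell (median -0.71), with sums of 10357 to 18434 in Aqp11-/- and 24621 to 28713 in Aqp11+/+ kidneys, and the part of this in the keratin and Sprr differences was not tested.

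The lists for the cell types where these keratins and Sprr genes are best known were read in the same way. They hold too few genes to show whether their shares differ from those of all genes. Of 14 collecting duct markers 2 rose and 2 fell (14.3% each, median -0.02), against 9.37% higher and 8.35% lower over all genes tested. Their sums overlapped, at 10294 to 12779 in Aqp11-/- and 8991 to 12663 in Aqp11+/+ kidneys. The water channel Aqp2 rose by 0.90 and Kcne1 by 0.91, whereas the vasopressin receptor Avpr2 differed by -0.48 and the anion exchanger Slc4a1 by -0.88 (all past the limma threshold). The call of Avpr2 was lost on the deposited scale, in males alone and within each brightness class, and that of Kcne1 in females alone. Of 9 urothelial markers tested 0 rose and 1 fell (11.1%), and 2 changed without Aqp11-/- array 2-4. The gene that fell was Upk3b, a uroplakin (difference -0.84, limma adjusted p = 0.00675). That call was lost in each sex alone, in each brightness class and on the deposited scale. The urothelial sums were 411 to 647 in Aqp11-/- and 525 to 646 in Aqp11+/+ kidneys. Of 5 keratinocyte markers tested 0 changed by limma, with 0 at an unadjusted p under 0.05, and the sums were 450 to 738 in Aqp11-/- and 521 to 716 in Aqp11+/+ kidneys. The sums are on the linear scale and take every named marker, also those too dim to test, with 12 urothelial and 13 keratinocyte genes. Bright markers therefore weigh most in them. No marker of these 3 lists was at the floor on all 16 arrays. The part of these cell types in the keratin and Sprr differences was not tested.

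In the remaining lists no marker rose. Their counts stand beside 9.37% higher and 8.35% lower over all genes tested. Of 11 endothelial and 8 podocyte markers, cells that contain Vim too, 4 of each fell and 0 rose by limma (medians -0.18 and -0.32). On the deposited scale 0 of either list changed, and the endothelial count was 2 in males alone or in the dimmer arrays and 1 in females alone. Of 7 loop and distal tubule markers 3 fell and 0 rose by limma (median -0.20), a count that was 1 on the deposited scale or in the brighter arrays and 5 with array weights.

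Differences among the Aqp11-/- kidneys were not used to choose the members, so it could be tested whether the members varied together from kidney to kidney. Over the 28 pairs the median Pearson r across the 9 Aqp11-/- arrays was 0.13, from -0.81 to 0.77, and 18 of 28 were positive. No pair passed after adjustment over the 28 (two-sided exact permutation test with Benjamini-Hochberg adjustment), and 3 had an unadjusted p under 0.05. The brightness classes hold 4 and 5 of these arrays, too few for a correlation within each.

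The highest correlation was that of the partner chains Krt8 and Krt18, with r = 0.77 (exact permutation p = 0.0247, adjusted p = 0.346) and rho = 0.82 (exact permutation p = 0.0108), and r was 0.59 without the 2 arrays farthest from the median of Krt8. Krt18 and Krt19 gave r = 0.60 (exact permutation p = 0.0431, adjusted p = 0.402) and rho = 0.73 (exact permutation p = 0.0311), with r = 0.45 without 2 arrays. Krt7 and Sprr2f ran opposite to each other, with r = -0.81 (exact permutation p = 0.0106, adjusted p = 0.297) and rho = -0.78 (exact permutation p = 0.0172), with r = -0.70 without 2 arrays. The 3 members with the largest differences gave no such values, with r = 0.33 for Krt20 and Sprr1a, 0.15 for Krt20 and Sprr2f and -0.22 for Sprr1a and Sprr2f. On the deposited scale, where array brightness is not removed, 10 pairs passed and the median r was 0.69.

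**Figure D4:**
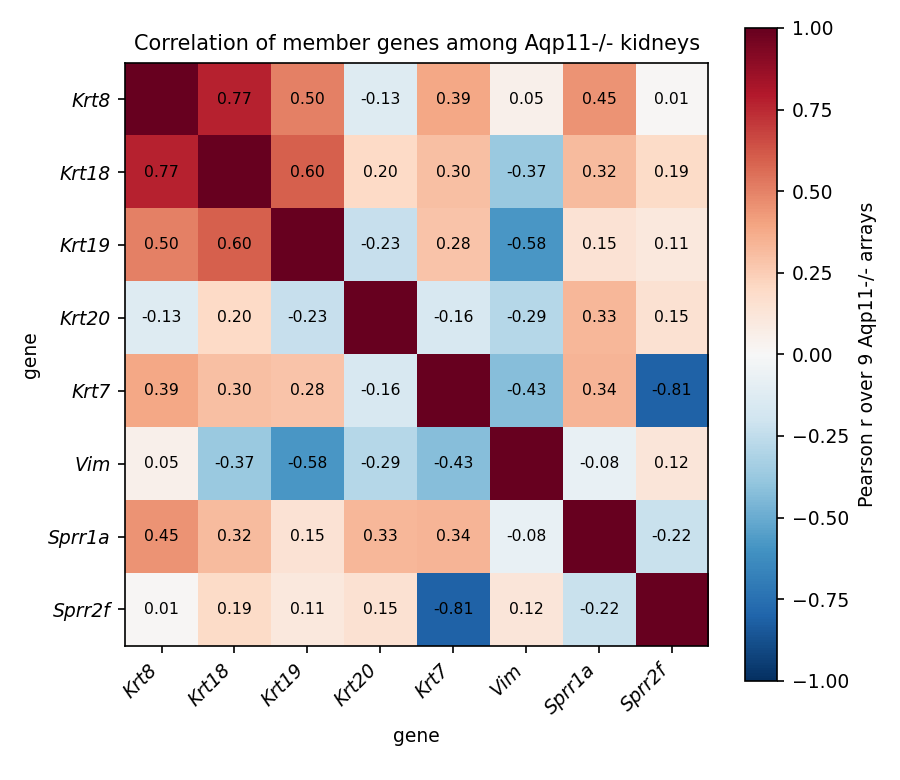
Pearson r between the log2 normalized signals of each pair of members (both axes list the genes) over the 9 Aqp11-/- arrays, red for positive and blue for negative. Krt8, Krt18 and Krt19 form the warm corner with r of 0.50 to 0.77, and the strongest blue cell is Krt7 against Sprr2f at -0.81. No pair passed after adjustment.

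The order of the kidneys, taken from the same values, was not the same for all members. With 9 arrays this does not show that the members lack a common ranking. The Aqp11-/- kidney 3-4 was the highest of the 9 for Krt8, Krt7 and Sprr1a and the lowest for Sprr2f. Kidney 1-2 was the highest for Krt20 and Sprr2f and the lowest for Krt7. Kidney 2-4 was the highest for Krt18 and Krt19 and the lowest for Vim, and kidney 4-3 was the lowest for Krt8, Krt18 and Krt19. Kidney 3-3 was the lowest for Krt20 and Sprr1a, and kidney 2-3 was the highest for Vim.

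The members were also set against array brightness and the mean log2 signal of the macrophage and proximal tubule lists over the 9 Aqp11-/- arrays, 24 relations added after seeing the data. None passed after adjustment over the 24 (two-sided exact permutation test), and 2 had an unadjusted p under 0.05. Krt7 ran against array brightness, with r = -0.84 (exact permutation p = 0.00529, adjusted p = 0.117), rho = -0.73 (exact permutation p = 0.0311) and r = -0.69 without the 2 farthest arrays. Sprr2f ran against the proximal tubule list, with r = -0.79 (exact permutation p = 0.00975, adjusted p = 0.117), rho = -0.82 (exact permutation p = 0.0108) and r = -0.79 without 2 arrays. Krt20 gave r = 0.56 with the macrophage list and -0.29 with the proximal tubule list, neither with an unadjusted p under 0.05.

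The genes most like Krt20 and Sprr2f were sought by Pearson r over the 9 Aqp11-/- arrays among all genes tested, as a description with no p. Nearest to Krt20 were Ndfip2, an adaptor of ubiquitin ligases (r = 0.93), Gm32031 (r = 0.93) and the phosphatase subunit Ppp2r5a (r = 0.92), and their own genotype differences were 0.02, 0.07 and -0.06 with no call. Nearest to Sprr2f were the secreted Wnt antagonist Frzb (r = 0.96), the adhesion receptor Adgrg6 (r = 0.94) and the leukocyte adaptor Fyb (r = 0.94), which differed by 0.36, 0.46 and 1.07 (limma adjusted p = 0.0352, 0.0107 and 0.00308). The call of Frzb was lost in 16 alternatives, 10 of which leave out a single array, that of Adgrg6 in 4 and that of Fyb in 2. In all, 4 genes reached an r of 0.9 with Krt20 and 14 with Sprr2f over these 9 arrays. The screen took the 12499 genes tested, less the members. Over so few arrays a screen of that size gives some high r by chance, and their number was not estimated.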

How the data were processed

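RNA of 16 kidneys, 1 per animal, was hybridised to Affymetrix mouse arrays of 45101 probe sets, 64 of them controls. The authors deposited linear signal intensities (0.0256 to 14264) computed with GCOS 1.3, per the submitters' processing notes. The sources used here do not give whether these had been scaled across arrays. Because their 2% trimmed means differed 2.13-fold, quantile normalization was applied, which cannot show a shift of all mRNA together. The 20th percentile of the whole table, 6.89 as signal and 2.78 as log2, then served as a floor, which understates differences of dim genes.

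The platform annotation lists 35890 probe sets. It gives 1 gene for 34945 of them outside the controls and several genes for 932, and leaves 9211 unlisted. Symbols were updated through RefSeq gene identifiers (GRCm38.p6), with 34754 matched and 204 unmatched. Of probe sets with 1 gene, the brightest stood for its gene. Genes entered the tests when their signal passed the 40th percentile of the array on 7 or more arrays, as 12499 did. Levels of different probe sets were used together to choose the brightest, in the filter on dim signals, and in the sums and means of marker lists. Elsewhere no level of a probe set was compared with that of another.

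Genotype, sex and sample number came from the labels. Genotypes were compared with limma 3.58.1 (R 4.3.3), using a moderated linear model with a mean-dependent prior variance, and Benjamini-Hochberg adjusted p-values under 0.05 across the 12499 genes were called. Sex was fitted beside genotype, and then together with its interaction. Correlations over the 9 Aqp11-/- arrays used two-sided exact permutation of pairings. The number of arrays limits the precision. The fits were tested on simulated data.

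The members, the gene lists and the naming rule were chosen with earlier results of these data known. The rule names every member, Aqp11, each changed cornified envelope gene or keratin and the 4 others with the smallest p, up to 4 changed genes of each other list, and the 3 genes most correlated with Krt20 and with Sprr2f. Des, Nes, Cdh1, Epcam, Zeb1, Krt5, Krt14, Krt6a, Krt16, Snai1, Zeb2 and Twist1, and Cdh16 as the single fall of its list, were named after their values were seen. The 31 alternative settings covered normalization, floor, filter, probe set, variance model, sex, first sample number, brightness class and each array left out.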

Additional observations from a re-analysis of the deposited data

Results flagged for a closer look

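Each group of Aqp11-/- or Aqp11+/+ arrays was examined for a single array standing apart, by the gap to its nearest neighbour as a share of the group's range. Chance flags about 1 in 20 groups, and 10 of 142 groups examined stood out. The only member among them was Krt19, whose highest Aqp11-/- array (2-4) was at 9.23, against 8.77 for the next and 8.49 at the other end, a share of 0.614. A dim probe set of Aqp11 had its highest Aqp11-/- array (3-4) at 3.06, just above the floor, with a share of 0.557.

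The other 8 were genes of the lists and 1 gene that resembled Krt20. Array 1-2 of the Aqp11-/- kidneys was the highest for the macrophage gene C1qa (share 0.656) and for Ppp2r5a (0.593) and the lowest for the stromal gene Postn (0.635). Array 2-4 was the lowest Aqp11-/- array for Mrc1 (0.567), and array 5-2 the lowest for the podocyte gene Plce1 (0.584). Among Aqp11+/+ kidneys, array 4-1 was the highest for Slc4a1 (0.705) and Nphs1 (0.571), and array 4-2 the lowest for Lmna (0.736).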

How the results depend on the processing

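The sign of all 12 member probe set differences was kept under each of 27 alternatives, and 8 of 324 values moved by more than 1 SD between replicates, all of them Vim between brightness classes or Krt20 and Sprr2f with a pseudocount of 16 and no floor (2.39 and 2.43). Krt7 stayed closest to 0, from -0.32 in females alone to -0.05 in males alone. The 2215 changed genes became 438 on the deposited scale, 1417 in males alone, 681 in females alone, 1333 in the brighter and 1179 in the dimmer arrays, with fewer arrays in the last 4, and 1859 to 2210 with an array left out. The 60 changed genes of all lists became 31 on the deposited scale and 38 in females alone (56 to 62 with an array left out). The cornified envelope count of 1 became 0 on the deposited scale, with the mean of probe sets or in the dimmer arrays, and 2 with array weights (1 to 2 with an array left out). The count of 1 for other intermediate filaments became 2 with array weights (1 to 2 with an array left out). The filament linker count of 3 became 1 on the deposited scale, and the epithelial identity count of 5 became 3 there and in the dimmer arrays. The mesenchymal count of 7 became 4 with median centring or the mean of probe sets, 3 in females alone and 2 on the deposited scale (5 to 7 with an array left out). The 0 correlated member pairs became 10 on the deposited scale. Where no construction is named the cause was not tested. Of 1763 values for named genes 102 lost the call, 4 gained it and none reversed, and the members' 416 sex tests never passed.

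As a replicate block, the first sample number raised the cornified envelope count to 2, with Rptn added to Scel, and moved no other listed count by over 1.5 times. With this block 2654 genes changed in place of 2215, and 70 genes of all lists in place of 60. Arrays sharing a first number had deviations correlated at -0.01 to 0.32. Arrays of different numbers were not compared, so these values cannot decide whether the number is a pairing. The labels do not name it as one, and it served only as an alternative. Signal over background limits the dim keratins and Sprr genes, whose differences the floor compresses.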
